A study of Rattus norvegicus with 2 samples.

Results

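The 5 genes described here belong to the angiopoietin and Tie receptor system: the receptors Tie1 and Tek, the ligands Angpt1 and Angpt2, and the angiopoietin-like gene Angptl4. They were chosen by name, as 5 of the 22154 genes listed in at least 1 of the 2 count tables, and each is listed in both tables. Their presence in these cells was known when they were chosen, so levels and differences are given as descriptions, with no test.

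Cells came from rats (Rattus norvegicus) 4 weeks old, from the zygomatic maxillary suture, which joins the cheek bone to the maxilla by fibrous tissue. In the distraction group a W-shaped distractor, bent from 0.4 mm NiTi wire and set to 20 g at the start, stretched the suture for 7 days. In the sham group the holes were drilled and no distractor was placed. Both groups had chloral hydrate anaesthesia, a cut through the facial skin and part of the masseter and temporal muscles freed from the bone. The sources used here give neither strain nor sex, nor how many animals stand behind each library. Each group has 1 library, made on a BD Rhapsody cartridge, in which a cell shares a microwell with a barcoded bead and each captured molecule gets a molecular identifier (UMI). With 1 library per group no difference has a replicate check, no p-value is given, and the 95% intervals cover counting error alone.

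Tie1 and Tek are receptor tyrosine kinases best known from the endothelium that lines blood vessels. Angiopoietin 1 activates Tek and steadies vessels, angiopoietin 2 weakens or replaces that signal depending on context, and Tie1 binds no angiopoietin directly but modulates Tek at the cell surface. Angptl4 resembles the angiopoietins in its domains and does not signal through Tek; it inhibits lipoprotein lipase, and lipid-activated nuclear receptors and low oxygen are known to induce it.

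The distraction library kept 4037 of 4889 cells with 31202493 UMIs and a median of 4161 UMIs per cell, and the sham library 5183 of 5351 cells with 29488955 UMIs and a median of 3033. The lowest depth of any sham cell was 920 UMIs, and 601 distraction cells had fewer. The tables share 22 cell indices. Cells were assigned to a class by a minimum number of detected marker genes. Cells that passed gates of different lineages were set aside as mixed, 2.82% of the distraction library and 3.28% of the sham library, and 12.6% and 11.6% passed no gate. Most cells were of blood and marrow types: 1437 distraction and 3117 sham cells passed the B-lineage gate and 1024 and 595 the neutrophil gate. Vascular and stromal classes were small. There were 20 endothelial cells in the distraction library, against 13 in the sham library, 7 and 8 mural cells (pericytes and smooth muscle), 41 and 13 fibroblasts, and 10 and 18 osteoblasts.

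These class names rest on the marker genes. The cadherin gene Cdh5, a defining endothelial marker, was detected in 18 of 20 distraction and 13 of 13 sham endothelial cells. Of 15 endothelial markers, Vwf had 65 UMIs in 5 distraction cells and 0 in the sham cells. In mural cells Rgs5 was detected in 7 of 7 distraction and 8 of 8 sham cells. Osteoblasts held Bglap in every cell of both libraries, while Sp7 was at 0 in both.

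Tie1 had 1094 UMIs in 523 distraction cells and 1294 UMIs in 751 sham cells. Tek had 39 UMIs in 28 distraction cells and 24 in 20 sham cells. Angpt1 had 146 UMIs in 115 distraction cells and 74 in 61 sham cells, and Angpt2 had 32 in 20 and 64 in 33. Angptl4 had 381 UMIs in 103 distraction cells and 511 in 116 sham cells. Each gene had its own distribution over cell classes. B-lineage cells held 31.4% of the Tie1 UMIs of the distraction library and 55.9% of those of the sham library, and endothelial cells held 16.5% and 8.27%.

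**Figure D1:**
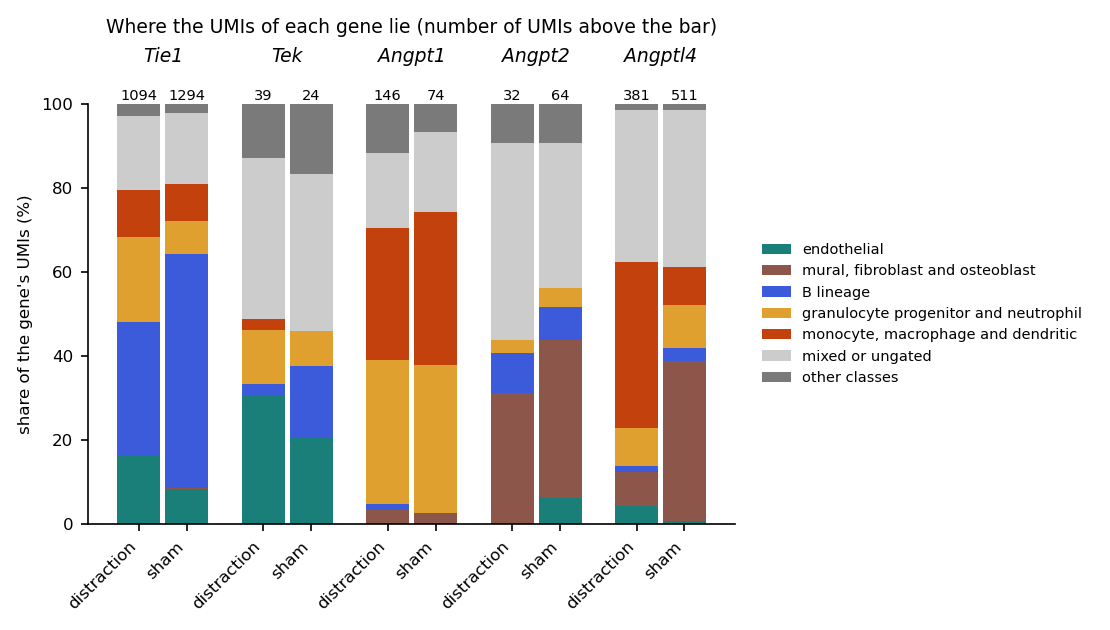
Share of each gene's UMIs (%) by groups of gated classes, distraction bar left of the sham bar for each gene, with the number of UMIs above each bar. Tie1 lies mostly in B-lineage, endothelial and myeloid cells, and Angpt1 in granulocytic and monocytic cells. The largest gated group for Angptl4 is monocytes, macrophages and dendritic cells in the distraction library (39.6%). In the sham library it is mural cells, fibroblasts and osteoblasts (38.0%). Mixed or ungated cells hold 36.0% (distraction) and 37.4% (sham) of Angptl4 UMIs, 38.5% and 37.5% of Tek UMIs and 46.9% and 34.4% of Angpt2 UMIs.

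Across all kept cells, 2 of the 5 genes passed the call used here, a ratio of at least 1.5 either way with its interval on 1 side of 1. Levels are in CPM, the gene's UMIs over all UMIs of the class times 1000000. The call was made only with at least 30 UMIs over both libraries, and 20.3% of all 12935 genes tested passed it. Angpt1 was higher at 4.68 CPM in the distraction library, against 2.51 CPM in the sham library, a ratio of 1.86 (1.40 to 2.50). Angpt2 was lower at 1.03 CPM in the distraction library, against 2.17 CPM in the sham library, a ratio of 0.473 (0.299 to 0.733). Over all cells, a change within cells and a different make-up of the library cannot be told apart. Within classes, 4 of the 75 pairs of gene and class were called, all 4 of them Angptl4 and all lower in the distraction library. Only 14 pairs reached the minimum of 30 UMIs, 10 of these were not called, and 61 pairs had too few counts. Over all genes, 10.9% of the 58682 pairs of gene and gated class with that minimum were called, 6.77% lower and 4.18% higher.

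**Figure D2:**
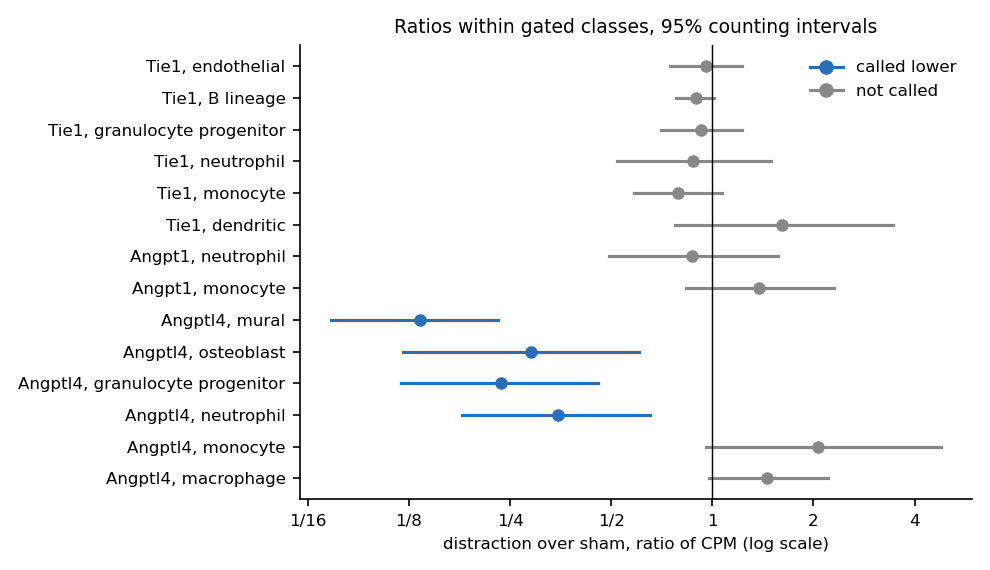
Ratio of CPM, distraction over sham, for the 14 pairs of gene and gated class with at least 30 UMIs (log axis), with 95% counting intervals. The 4 called pairs, all Angptl4, lie left of 1, and the 6 Tie1 pairs have intervals that include 1.

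Among the ligands, Angpt1 had most of its UMIs in granulocytic and monocytic cells and was not detected in endothelial or mural cells. Monocytes held 45 UMIs in 36 of 188 distraction cells and 27 UMIs in 22 of 166 sham cells, or 15.9 CPM (11.6 to 21.3) and 11.6 CPM (7.62 to 16.8). Neutrophils held 35 UMIs in 31 of 1024 distraction cells and 21 in 18 of 595 sham cells, or 5.66 CPM (3.94 to 7.87) and 6.52 CPM (4.04 to 9.97). Granulocyte progenitors held 15 and 5 UMIs, or 3.22 and 2.81 CPM. Endothelial cells, mural cells and osteoblasts held 0 Angpt1 UMIs in both libraries, and at this depth 3 counts in mural cells would already be 69.8 CPM in the distraction library, against 63.3 CPM in the sham library. The endothelial intervals reached up to 26.3 CPM in the distraction library and 46.5 CPM in the sham library, above the monocyte levels. Fibroblasts had 5 UMIs in 3 of 41 distraction cells and 2 UMIs in 1 of 13 sham cells, or 10.6 and 20.4 CPM. Stem and progenitor cells had 5 and 2 UMIs, or 14.4 and 7.99 CPM. Megakaryocytes and platelets had 1 and 3, or 4.96 and 23.1 CPM. The intervals of these last classes, fibroblasts included, overlap those of monocytes in both libraries.

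The ratio of Angpt1 between libraries was 1.37 (0.834 to 2.30) in monocytes, where 6.57% of all genes were called, and 0.868 (0.491 to 1.57) in neutrophils, where 8.27% were called. Neither passed the call that the whole libraries passed. The classes with the most Angpt1 UMIs differed in number: the distraction library had 1024 neutrophils and 188 monocytes, against 595 neutrophils and 166 monocytes in the sham library. B-lineage cells, with 2 and 0 Angpt1 UMIs, numbered 1437 and 3117. Erythroid cells, taken as background, held 2 UMIs in 393 distraction cells and 0 in 286 sham cells. Mast cells and basophils were the class with the highest Angpt1 level in the distraction library. There 6 of 14 distraction cells held 9 UMIs, or 56.4 CPM (25.8 to 107), and 0 of 10 sham cells held any, so that up to 30% of such cells could hold an Angpt1 UMI, and 3 counts would be 28.5 CPM. With those 3 counts in place of the sham 0, the ratio was 1.98, from 9 UMIs in all. The counting interval of the ratio reached down to 1.30, so 1.98 is not a lower limit. These 9 UMIs are under the minimum of 30 for a call, and 17.2% of all genes tested in this class were called.

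Angpt2, the ligand that context turns into a blocker of Tek, was found in mural cells of both libraries. There were 5 UMIs in 3 of 7 distraction cells and 5 UMIs in 3 of 8 sham cells, or 116 CPM (37.8 to 272) and 106 CPM (34.3 to 246). The ratio was 1.10 with an interval of 0.254 to 4.79, too wide to rank the libraries. Osteoblasts held 3 UMIs in 2 of 10 distraction cells and 19 UMIs in 6 of 18 sham cells. Their ratio was 0.394 with an interval of 0.0747 to 1.34, and the 22 UMIs are under the minimum for a call. In endothelial cells 0 of 20 distraction cells and 4 of 13 sham cells held an Angpt2 UMI, 1 each. Among cells set aside because they passed the endothelial gate and another lineage's gate, 1 of 4 distraction cells held 2 UMIs. In the sham library 1 of 5 such cells held 5. Monocytes, macrophages, dendritic cells and neutrophils held none in either library. In the sham stem and progenitor class all 6 Angpt2 UMIs lay in 1 cell.

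Tek, the receptor that binds both angiopoietins, was highest in endothelial cells, whose sham interval overlaps that of stem and progenitor cells. It had 12 UMIs in 8 of 20 distraction cells and 5 UMIs in 4 of 13 sham cells, or 85.5 CPM (44.2 to 149) and 63.1 CPM (20.5 to 147). No cell held more than 3 Tek UMIs in the distraction class or more than 2 in the sham class. Stem and progenitor cells, which include hematopoietic stem cells known to carry Tek, had 3 UMIs in 3 of 16 distraction cells and 4 UMIs in 4 of 14 sham cells. Their levels were 8.63 CPM (1.78 to 25.2) and 15.97 CPM (4.35 to 40.9). Fibroblasts, mural cells and osteoblasts held 0 Tek UMIs in both libraries. Cells that passed the endothelial gate and the gate of another lineage, 4 in the distraction library, against 5 in the sham library, held a further 5 and 4.

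Tie1, the partner receptor, was highest in endothelial cells and at nearly the same level in both libraries. It had 181 UMIs in 19 of 20 distraction cells, with a median of 7 and a highest cell of 26. In the sham library it had 107 UMIs in 13 of 13 cells, with a median of 5 and a highest cell of 28. These are 1290 CPM (1109 to 1493) and 1349 CPM (1106 to 1631), and the ratio of 0.956 (0.749 to 1.23) was not called, while 19.2% of all genes tested in this class were. The cells of both libraries cover about the same range. Neutrophil markers summed to 784 CPM in distraction endothelial cells and 2825 CPM in sham ones, and their part in these values was not tested.

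The promoter of Tie1 is shown because the gene was found in cell types as far apart as endothelium and B-cell precursors. It spans the 250 bases before the gene's start on the minus strand at chr5:137304982-137305231 of GRCr8, taken from RefSeq, and 61.6% of its bases are G or C. Capitals mark GGAA and its reverse complement TTCC, the core that ETS-family transcription factors bind.
Tie1: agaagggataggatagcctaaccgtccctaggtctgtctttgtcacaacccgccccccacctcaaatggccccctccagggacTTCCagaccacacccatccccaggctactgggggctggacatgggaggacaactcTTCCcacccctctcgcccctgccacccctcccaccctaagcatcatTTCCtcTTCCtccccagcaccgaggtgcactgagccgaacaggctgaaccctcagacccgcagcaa
The core occurs 4 times, on the strand opposite to the one printed each time, and the match nearest the start begins 60 bases before it. It is a common run of letters, held by 93.2% of 33469 rat promoters of this length searched on both strands. No TATA box (TATAAA) was found in this window, which 12.9% of the promoters hold.

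Outside endothelium, Tie1 was spread over the hematopoietic classes at a much lower level. B-lineage cells had 344 UMIs in 231 of 1437 distraction cells and 723 UMIs in 510 of 3117 sham cells, or 46.0 CPM (41.3 to 51.1) and 51.6 CPM (47.9 to 55.5). Within each library the endothelial level was 28.1 times (23.3 to 33.7) that of B-lineage cells in the distraction library, against 26.1 times (21.1 to 32.1) in the sham library. Granulocyte progenitors were at 38.9 and 42.1 CPM, monocytes at 31.8 and 40.3 CPM, dendritic cells at 58.5 and 36.3 CPM, and megakaryocytes and platelets at 59.5 and 84.9 CPM in the distraction and sham libraries. Neighbours in this order have intervals that overlap, while B-lineage cells and monocytes of the distraction library do not (25.6 to 39.1 CPM in the monocytes).

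Neutrophils and erythroid cells were taken as low comparison classes, and the part of free RNA in their values was not tested. In both libraries the neutrophil interval in CPM lay wholly above the erythroid interval, so the classes do not mark the same background. Neutrophils had 6.79 CPM (4.90 to 9.18) in the distraction library, against 7.77 CPM (5.03 to 11.5) in the sham library. A Tie1 UMI was present in 1.86% of distraction and 2.69% of sham neutrophils, at median depths of 3995 and 3945 UMIs, against 16.1% and 16.4% of B-lineage cells at lower medians of 3047 and 2718. Erythroid cells held 0 UMIs in 393 distraction cells, which allows up to 0.763% of such cells to hold a UMI but sets no limit on cells that express the gene, and 2 UMIs in 286 sham cells. The level in B-lineage cells was 6.77 times (4.90 to 9.56) that of neutrophils in the distraction library, against 6.65 times (4.47 to 10.3) in the sham library. The neutrophil level depended on the gates: with cells of more than 1 gate kept it was 23.4 CPM in the distraction library, against 27.2 CPM in the sham library, where B-lineage cells had 45.9 and 51.7 CPM. As a mean of per-cell CPM it was 1.85 and 3.74 CPM. Mural cells and osteoblasts held no Tie1 UMI, and fibroblasts held 0 in 41 distraction cells and 3, all in 1 cell, among 13 sham cells.

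**Figure D3:**
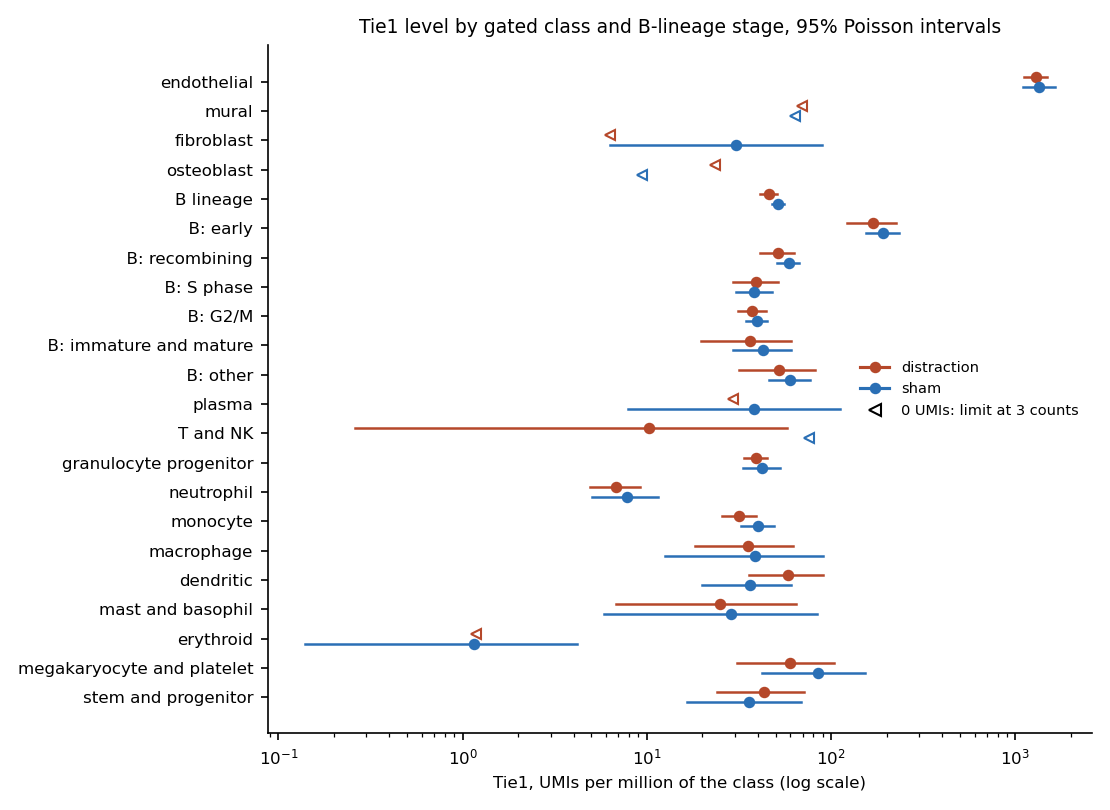
Tie1 level in CPM (log axis) by gated class and by B-lineage stage, distraction above sham, with 95% Poisson intervals. Open triangles stand at the level of 3 counts for classes with 0 UMIs. Endothelial cells lie at 1290 and 1349 CPM, early B-lineage cells at 168 and 191 CPM, and neutrophils at 6.79 and 7.77 CPM in the distraction and sham libraries.

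None of the 6 classes with enough Tie1 counts was called between libraries. The ratio was 0.891 (0.781 to 1.01) in B-lineage cells, where 4.26% of all genes were called, 0.923 (0.702 to 1.23) in granulocyte progenitors, 0.789 (0.584 to 1.07) in monocytes and 0.875 (0.521 to 1.498) in neutrophils. Dendritic cells had the widest interval, 1.61 (0.774 to 3.45), and their ratio lay between 1.03 and 3.48 over the alternatives. Called shares of all genes were 10.8% in granulocyte progenitors and 14.9% in dendritic cells.

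Within the B lineage, Tie1 was highest in the earliest stage, which was set by at least 2 of Igll1, Vpreb1, Vpreb2 and Dntt outside S phase and G2/M. Igll1, Vpreb1 and Vpreb2 encode the surrogate light chain of the pre-B receptor, and Dntt adds bases at the joints of immunoglobulin genes. Early cells had 44 UMIs in 27 of 56 distraction cells and 100 UMIs in 60 of 130 sham cells, or 168 CPM (122 to 226) and 191 CPM (155 to 232). Cells that held Rag1 or Rag2, the recombinase that cuts those genes, had 51.2 CPM in the distraction library, against 58.8 CPM in the sham library. Immature and mature B cells had 36.1 and 42.8 CPM, cells in G2/M 37.3 and 39.4 CPM, and cells in S phase 39.3 and 38.2 CPM.

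Early cells thus had 3.29 times (2.23 to 4.78) the level of recombining cells in the distraction library and 3.25 times (2.54 to 4.14) that level in the sham library. They had 4.66 times (2.51 to 9.21) the level of immature and mature cells in the distraction library, against 4.47 times (2.97 to 6.88) in the sham library. Endothelial cells in turn had 7.67 times (5.49 to 10.9) and 7.06 times (5.33 to 9.37) the level of early B cells. No call was made between the libraries in any of the 6 stages, and the ratio in immature and mature cells, 0.843, was 0.492 with 1 fewer marker per gate. In early cells the ratio was 0.880 (0.603 to 1.27), and 7.32% of all genes tested there were called. The called shares were 5.12% in recombining cells, 4.52% in G2/M, 5.88% in S phase, 7.98% in immature and mature cells and 7.01% in the remaining B cells. In shares of cells, 48.2% (34.7 to 62.0) of distraction and 46.2% (37.4 to 55.1) of sham early cells held a Tie1 UMI. With every cell thinned to 2000 UMIs the expected shares were 25.7% and 29.99%, against 8.22% and 9.46% of recombining cells and 0.353% and 0.717% of neutrophils. Thinning left out 0 and 12 early cells, 168 and 473 recombining cells and 65 and 31 neutrophils of the distraction and sham libraries.

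The level also followed the number of early markers inside cycling cells, which are not part of the early stage. Cycling cells with none of the 4 markers had 12.0 CPM (7.35 to 18.6) in the distraction library, against 21.1 CPM (15.98 to 27.3) in the sham library. Those with 2 had 49.3 and 42.4 CPM. Those with all 4 had 103 CPM (69.7 to 147) in 20 distraction cells and 95.7 CPM (68.4 to 130) in 23 sham cells. In both libraries each further marker went with a higher Tie1 level in cycling cells. Median depth was also higher with all 4 markers, at 6694 UMIs with none and 13471 with all 4 in the distraction library and 6457 and 17838 in the sham library; CPM divides by depth, and any further part of depth was not tested. Outside the cycle, cells with 2, 3 and 4 markers had 148, 160 and 189 CPM in the distraction library, where those with 1 had 92.0 CPM and those with none 44.7 CPM. The sham cells had 210, 170 and 202 CPM with 2, 3 and 4 markers, 56.3 CPM with 1 and 56.9 CPM with none, so outside the cycle the sham level did not follow each further marker.

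**Figure D4:**
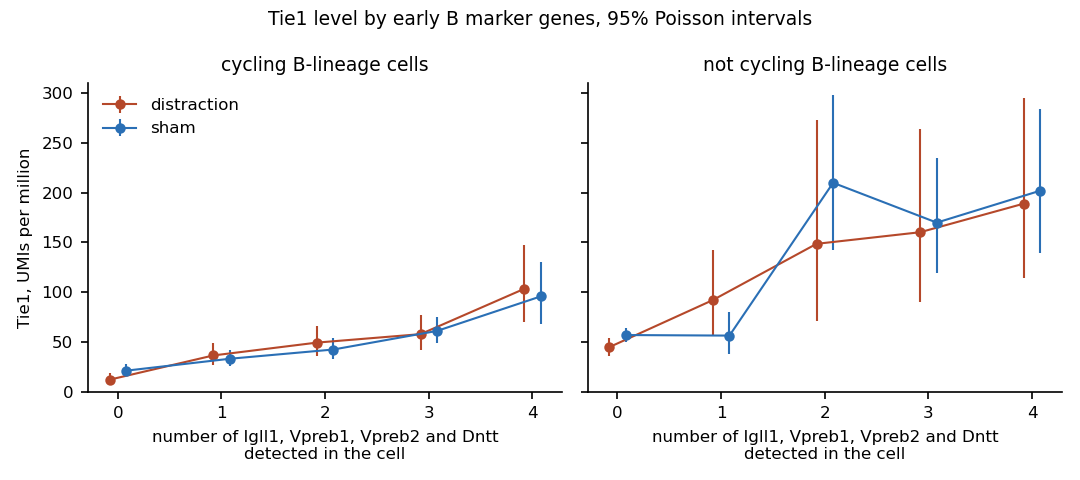
Tie1 in CPM against the number of early B markers (Igll1, Vpreb1, Vpreb2, Dntt) detected in a cell, for cycling (left panel) and non-cycling (right panel) B-lineage cells, with 95% Poisson intervals. In cycling cells with 4 markers the level is 103 CPM for distraction and 95.7 CPM for sham, and the intervals of the libraries overlap at each number of markers.

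Most endothelial markers were not detected in early B cells. Of 15 endothelial markers, the same 12 were at 0 in the 56 distraction cells and in the 130 sham cells, among them Cdh5, the receptor genes Kdr, Flt1 and Flt4, and Emcn. The summed level of all 15 was 141 CPM in distraction and 203 CPM in sham early B cells, against 7513 and 8727 CPM in endothelial cells. Egfl7, an endothelial secreted factor, gave most of it with 32 UMIs in 23 distraction cells and 94 UMIs in 55 sham cells. Erg, an ETS-family factor shared by endothelium and blood progenitors, was in 55.6% of Tie1-positive and 51.7% of Tie1-negative early cells of the distraction library, and in 73.3% and 52.9% in the sham library. Over the whole B lineage, Igll1 was in 54.5% of Tie1-positive and 15.7% of Tie1-negative distraction cells, and in 43.1% and 16.2% of sham cells. Those Tie1-positive cells were deeper, with medians of 5624 against 2884 UMIs in the distraction library and 4087 against 2619 in the sham library, and the part of depth in these shares was not tested. Tek was almost absent here: 1 UMI in 1437 distraction and 4 in 3117 sham B-lineage cells.

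The genes most like Tie1 across 27 points, each a class of at least 10 cells in 1 library, ran by Pearson r of log2(CPM + 1) from Fli1 at 0.78 over Dusp2, Icam2 and Ybx1 to Trafd1 at 0.75. Fli1 is an ETS-family factor of endothelium and blood, and Icam2 an adhesion molecule of the same cells. Over the 12 points of the B stages the most alike ran from Pknox2 at 0.97 over Ppm1b, Phyh and Tbl1xr1 to Pik3ca at 0.95, the last a kinase subunit downstream of the Tie receptors. For Tek they ran from Bcam at 0.92 over Mecom, Ebf3 and Ripply3 to Lipe at 0.86, with 34 to 109 UMIs each. For Angpt1 they ran from Tctn1 at 0.77 over Cryl1, Sacm1l and Ptgr1 to Asl at 0.68, and for Angpt2 from Pald1 at 0.76 over Cemip, Gal and Slc8a3 to Pdzd2 at 0.70. For Angptl4 they ran from Sgk1, a kinase gene induced by glucocorticoids, at 0.89 over Heph, Pdgfa and Fcgrt to the cholesterol exporter gene Abca1 at 0.82. These points share libraries and depth, the 5 genes were the top of 12687, and the values are descriptions. The order of classes by level was alike between libraries for Tie1, with a Spearman rho of 0.86 over 13 classes, and for Angptl4 at 0.78, Tek 0.66, Angpt1 0.61 and Angpt2 0.43.

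Angptl4 was the 1 gene of the 5 that was called between libraries within a class. In mural cells it had 15 UMIs in 5 of 7 distraction cells and 123 UMIs in 6 of 8 sham cells. The 7 distraction cells held 6, 4, 3, 1, 1, 0 and 0 UMIs, and the 8 sham cells 39, 27, 21, 17, 13, 6, 0 and 0. The ranges overlap at 0 to 6, and 5 sham cells lie above every distraction cell. These are 349 CPM (195 to 576) in the distraction library, against 2596 CPM (2157 to 3097) in the sham library, the highest level of Angptl4 in any sham class. The sham level lay between 1305 CPM, with cells of more than 1 gate kept, and 3389 CPM, as a mean of per-cell CPM. The ratio was 0.135 (0.0731 to 0.231), in a class where 31.6% of all 494 genes tested were called. Median depth was 6385 and 5506 UMIs. Fibroblast markers summed to 1513 CPM in distraction and 1372 CPM in sham mural cells, osteoblast markers to 69.8 and 443 CPM and endothelial markers to 46.6 and 253 CPM, and their part in the result was not tested. The value rests on 7 and 8 cells, of 1 library each.

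The Angptl4 promoter is shown for contrast with that of Tie1. Its 250 bases before the start lie on the minus strand at chr7:15258682-15258931 of GRCr8, again from RefSeq, with 60.0% G or C. Capitals mark the TATA box, TATAAA, which sets where transcription begins in some promoters.
Angptl4: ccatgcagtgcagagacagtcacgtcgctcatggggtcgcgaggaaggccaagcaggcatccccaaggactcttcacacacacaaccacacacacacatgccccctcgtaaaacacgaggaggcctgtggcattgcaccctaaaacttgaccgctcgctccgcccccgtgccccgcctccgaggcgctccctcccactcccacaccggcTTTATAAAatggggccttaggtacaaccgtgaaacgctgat
The box is matched once on each strand in overlapping letters, and the match nearest the start begins 39 bases before it. The same 12.9% of rat promoters hold it somewhere in this window. The core of the hypoxia response element, ACGTG, occurs once, on the strand opposite to the one printed, 230 bases before the start, and 16.6% of promoters hold it on either strand. RefSeq promoters were at hand for 2 of the 5 genes.

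Osteoblasts had 8 Angptl4 UMIs in 2 of 10 distraction cells, 4 in each, and 69 UMIs in 8 of 18 sham cells. The levels were 62.7 CPM (27.1 to 124) and 217 CPM (169 to 274), a ratio of 0.289 (0.120 to 0.603) in a class where 34.3% of genes were called. A single sham cell held 43 of the 69 UMIs. Without the highest cell of each library the ratio was 0.402 (0.102 to 1.16) and the call was lost. With 1 fewer marker per gate it was 1.98 on 7 UMIs. The osteoblast classes also differed in markers of embedded bone cells, with Dmp1 at 125 CPM in the distraction library against 1769 CPM in the sham library and Phex at 31.4 against 556 CPM, whose part in the result was not tested.

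Granulocyte progenitors had 16 UMIs in 11 of 169 distraction cells and 26 in 15 of 100 sham cells, or 3.44 CPM (1.97 to 5.59) and 14.6 CPM (9.54 to 21.4), a ratio of 0.235 (0.118 to 0.456) in a class where 10.8% of genes were called. With 1 fewer marker per gate the ratio was 0.286 on 29 UMIs, under the minimum for a call. Neutrophils had 18 UMIs in 15 of 1024 distraction cells and 27 in 19 of 595 sham cells, or 2.91 CPM (1.73 to 4.60) and 8.39 CPM (5.53 to 12.2), a ratio of 0.347 (0.180 to 0.654), where 8.27% of genes were called. The share of neutrophils with an Angptl4 UMI was 1.46% in the distraction library, against 3.19% in the sham library. In erythroid cells, taken as background, the shares were 0.509% and 0.699% and the levels 1.57 and 1.73 CPM, at median depths of 3794 and 3774 UMIs. The part of free RNA in the granulocytic values was not tested.

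Macrophages carried Angptl4 in few cells at high counts. In the distraction library 8 of 25 cells held 121 UMIs, with 30, 30, 28, 17, 9, 4, 2 and 1 in the positive cells. In the sham library 2 of 16 cells held 16 UMIs each. With cells thinned to 2000 UMIs the expected shares were 26.0% of 20 distraction cells and 14.4% of 11 sham cells. Cells set aside because they passed both the macrophage and erythroid gates are not in this class. These held 35 UMIs in 5 of 9 distraction cells and 36 UMIs in 6 of 10 sham cells. The class had 357 CPM (296 to 427) in the distraction library, against 246 CPM (169 to 348) in the sham library, a ratio of 1.45 (0.975 to 2.21) that was not called, where 16.9% of genes were. Without the highest cell of each library it was 1.90 (1.11 to 3.46), which passed the call, and over 10 alternatives it lay between 0.712 and 3.71. Macrophage markers were at like levels in both, 12047 and 13752 CPM in sum, and mural markers summed to 32.5 CPM in distraction macrophages and were all at 0 in the sham ones. Monocytes had 25 UMIs in 11 of 188 distraction cells and 10 UMIs in 8 of 166 sham cells, or 8.83 and 4.28 CPM, a ratio of 2.06 (0.956 to 4.81) that was not called and became 0.286 with 1 more marker per gate.

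**Figure D5:**
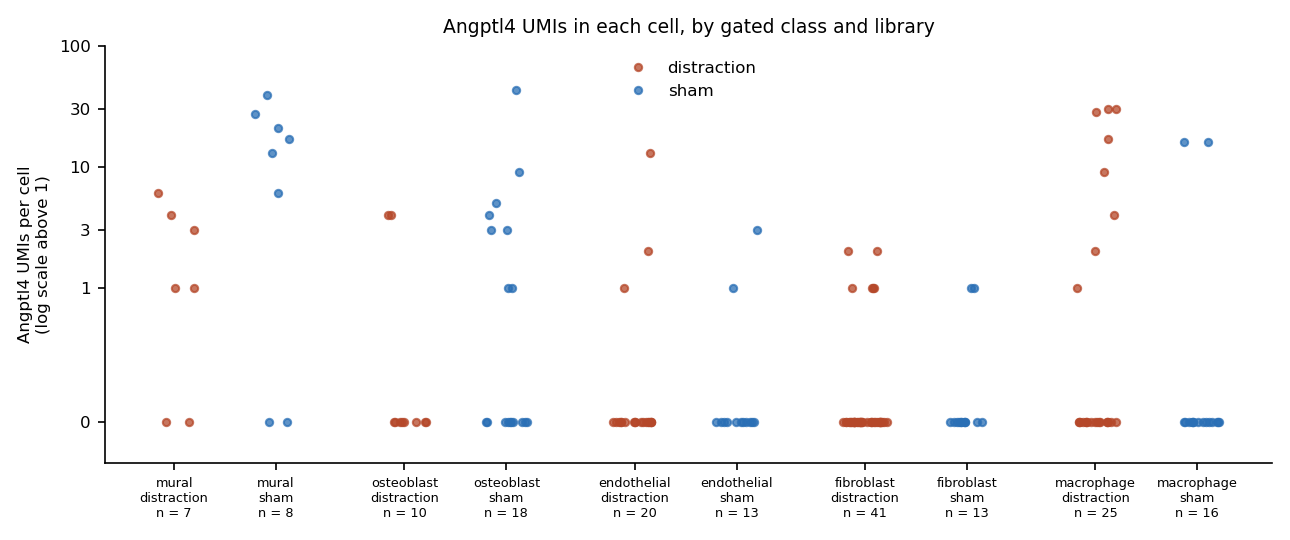
Angptl4 UMIs in each cell (log scale above 1) of 5 gated classes, distraction left of sham, each point 1 cell, spread sideways for visibility. In mural cells 5 of 8 sham cells lie above the highest distraction cell at 6 UMIs, and in macrophages 8 of 25 distraction and 2 of 16 sham cells hold any. Cells set aside as mixed are not shown.

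In endothelial cells Angptl4 had 16 UMIs in 3 of 20 distraction cells, 13 of them in 1 cell, and 4 UMIs in 2 of 13 sham cells. Fibroblasts were low in both libraries, with 8 UMIs in 6 of 41 distraction cells and 2 UMIs in 2 of 13 sham cells, or 16.9 CPM (7.30 to 33.3) and 20.4 CPM (2.47 to 73.6). The series title concerns fibroblasts under strain, and of the 5 genes fibroblasts held 0 UMIs of Tie1 and Tek in the distraction library and at most 8 of any other. Cells set aside as mixed held 103 Angptl4 UMIs in the distraction library, against 184 in the sham library. Those that passed a stromal gate and another lineage's gate held 50 UMIs in 3 of 20 distraction cells and 119 UMIs in 9 of 12 sham cells.

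Genes that work with the Tie receptors were read from a list of 19. In endothelial cells 8 of them reached the minimum and 0 were called in either direction, with a median log2 ratio of 0.06 beside -0.02 over all 1261 genes tested there, of which 19.2% were called. Ptprb, the phosphatase that removes phosphate from Tek, was at 292 CPM in the distraction library, against 265 CPM in the sham library. In B-lineage cells 1 of 14 was called, the adaptor gene Dok2, lower at 2.27 CPM in the distraction library against 4.998 CPM in the sham library, beside 4.26% of all genes. In macrophages, where 203 of 2011 genes were higher and 136 lower, 3 of the 8 tested were higher: the integrin gene Itga5 at 221 and 46.2 CPM, the sheddase gene Adam17 at 136 and 61.6 CPM, and Pik3r1 at 316 and 200 CPM in the distraction and sham libraries. Over all classes 7 of 118 pairs of gene and class were higher and 7 lower, 11.9% called, near the 10.9% of all 58682 pairs tested. Of 7 angiopoietin-like relatives, Angptl1 in fibroblasts and Angptl6 in B-lineage cells reached the minimum and neither was called.

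Lipid and hypoxia partners of Angptl4, a list of 17, had 20 of 96 pairs of gene and class lower in the distraction library (20.8%) and 4 higher (4.17%). Of all 58682 pairs tested, 6.77% were lower and 4.18% higher. With cells of more than 1 gate kept the numbers of the list were 28 lower and 22 higher. The number lower fell to 10 without the cell with the most counts. Over 10 alternatives it ran from 10 to 28, and the number higher from 4 to 22. In mural cells 1 of 3 tested was called, beside 31.6% of all genes there: Lpl, the lipase that Angptl4 inhibits, at 396 CPM in the distraction library, against 1351 CPM in the sham library, a ratio of 0.293 (0.161 to 0.506). Epas1 and Vegfa, the hypoxia-inducible factor gene and its target, had ratios of 0.919 and 0.843 there and were not called. In osteoblasts, where 313 of 1513 genes were lower and 206 higher, all 4 tested were lower, Ppard at 0.285, Hif1a at 0.422, Fabp5 at 0.462 and Vegfa at 0.662, with a median log2 ratio of -1.17 beside -0.16 over all genes of the class. The Dmp1 and Phex levels given above differed between the same cells.

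In endothelial cells, where 19.2% of genes were called, 2 of 3 were lower, the fatty acid carrier gene Fabp4 at 185 CPM in the distraction library against 1047 CPM in the sham library, and Hif1a at 499 against 807 CPM. Neutrophil markers in these cells summed to 784 against 2825 CPM, and their part was not tested. In macrophages, where more genes in general were higher than lower, 3 of 10 were higher and 0 lower: Vegfa at 387 CPM in the distraction library against 84.7 CPM in the sham library, the glucose transporter gene Slc2a1 at 263 against 69.3 CPM, and Lpl at 156 against 61.6 CPM. The median log2 ratio over those 10 was 0.60 beside 0.13 over all genes of the class. In dendritic cells, where 14.9% of genes were called, 4 of 9 were lower, with Fabp4 at 0.107, Plin2 at 0.336, Vegfa at 0.509 and Hif1a at 0.547. Endothelial markers in these cells summed to 319 CPM in the distraction library against 85.6 CPM in the sham library, and their part was not tested. In fibroblasts 1 of 7 was called, Vegfa, higher at 605 CPM in the distraction library against 306 CPM in the sham library, where 14.8% of all genes were called. In B-lineage cells 0 of 10 were called.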

How the data were processed

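Single-cell RNA was measured in 1 distraction and 1 sham library. The deposited values are whole-number UMI counts per gene and cell, unscaled, which the authors made with version 1.5.1 of the BD WTA Rhapsody Analysis Pipeline, per the file headers. Rnor_6.0 as the build and Seurat 3.6, with no role given, come from the submitters' processing notes; the aligner, annotation release and cell-calling rule were not given in the sources used here. A gene listed in 1 table only was counted as 0 in the other.

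Cells with at least 500 UMIs, 200 genes and under 25% mitochondrial UMIs were kept. Gates needed 5 of 15 endothelial, 4 of 13 mural, 6 of 10 neutrophil or 3 listed markers of another class, and monocytes also Csf1r or Ly86; B stages were assigned in the order G2/M, S phase, early, recombining, immature and mature. No doublet caller was run: cells that passed gates of different lineages were left out, and undetected doublets may remain. Counts were summed per class and library and scaled to CPM. Levels carry exact Poisson intervals, shares exact Clopper-Pearson intervals and ratios exact conditional binomial intervals, and UMIs of 1 cell are not independent of each other. A ratio was called at 1.5 with its interval on 1 side of 1 and at least 30 counts, in classes of at least 5 cells in both libraries. A fold against 0 counts puts 3 counts per class and library in place of the 0, and it is not a limit of the counting interval. Thinned shares are the exact expectation over draws of 2000 UMIs per cell. The calls were checked on simulated Poisson counts, the model that the intervals assume, with no clustering in cells or variation between libraries. That check cannot show how the calls hold under either. The thinning was checked against random draws from cells. The 5 members were named whatever their values, with the 5 genes most alike each and called members of the lists, up to 4 a class. The members, gates and lists were chosen with earlier results of these data known. Scripts ran in Python 3.11.15 with numpy 2.4.6 and scipy 1.17.1. Promoters are from RefSeq on GRCr8, another build than the counts use. Alternatives changed the filters on cells, the number of markers per gate, the treatment of cells of more than 1 gate, the scaling, the call's ratio and minimum, and left out the cell with the most counts. For the mean of per-cell CPM the interval of the summed counts was multiplied by a constant to fit the new ratio. It is not an interval of that mean.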

Additional observations from a re-analysis of the deposited data

Results flagged for a closer look

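Angptl4 was lower in the distraction library in 4 cell classes, and its ratio in monocytes lay on the other side of 1 without being called. The ratio, distraction over sham, was 0.135 in mural cells, 0.289 in osteoblasts, 0.235 in granulocyte progenitors and 0.347 in neutrophils, all called lower. Of all genes tested in these 4 classes, 31.6%, 34.3%, 10.8% and 8.27% were called in either direction. In monocytes the Angptl4 ratio was 2.06, with an interval of 0.956 to 4.81 that includes 1, and it became 0.286 with 1 more marker per gate. The osteoblast ratio became 1.98, on 7 UMIs, with 1 fewer marker and was 0.402 and not called without the cell with the most counts. The difference between these ratios was not tested, and each rests on 1 library per group.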

How the results depend on the processing

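No paired analysis was possible because each group has 1 library. The ratio of Angptl4 in mural cells stayed between 0.0981 and 0.211 over 10 alternatives and was called in each. Tie1 in endothelial cells stayed between 0.832 and 1.01 as a ratio and was called in none. Its level in distraction endothelial cells left its interval at 1069 CPM with cells of more than 1 gate kept and at 1528 CPM with haemoglobin, immunoglobulin, mitochondrial and ribosomal genes out of the total. The early over recombining ratio of Tie1 lay between 2.38 and 3.40 for the distraction library and 2.12 and 3.73 for the sham library, the lowest sham value, 2.12, with 1 fewer marker per gate. With 1 fewer marker the share of early B cells with a Tie1 UMI was 31.0% (distraction) and 24.9% (sham), and thinned to 2000 UMIs it was 25.7% and 29.99%.

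Angptl4 turned round in osteoblasts, to 1.98 on 7 UMIs, with 1 fewer marker per gate, and in monocytes, to 0.286, with 1 more; the cause was not tested. Granulocyte progenitors lost the Angptl4 call with 1 fewer marker, at 29 UMIs and a ratio of 0.286, while the ratio stayed between 0.215 and 0.286 over all alternatives. The number of pairs of member and class called lower was 4 of 14 tested, beside 6.77% of all gene and class pairs, and ranged from 3 to 6. The number called higher was 0 and became 1 with 1 fewer marker, with the mean of per-cell CPM and without the cell with the most counts, each time Angptl4 in macrophages. In these settings its ratio was 3.71, 2.91 and 1.90. Calls on the mean of per-cell CPM use an interval scaled from the summed counts, which does not measure the spread between cells. Tie1 in neutrophils and in monocytes was called lower under 2 alternatives each, the mean of per-cell CPM with 0.495 and 0.635 among them. Of the lists, Tie receptor partners had 4 higher and 4 lower with 1 more marker, 12 and 11 with cells of more than 1 gate kept, and 11 lower with no minimum count. Relatives had 1 higher with cells of more than 1 gate kept and 1 lower with the mean of per-cell CPM. Lipid and hypoxia partners had 8 higher with 1 more marker, 7 with 1 fewer, 22 with cells of more than 1 gate kept and 9 with the mean of per-cell CPM, and 10 lower without the cell with the most counts.

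Keeping only cells as deep as the shallowest sham cell was chosen after seeing the data and changed no call of a member. Of 250 ratios under alternatives, 237 stayed on the same side of the call. Of these, 11 that were not called lay on the other side of 1, among them Tie1 in granulocyte progenitors at 1.49, Angpt1 in neutrophils at 1.32 and Angptl4 in macrophages at 0.712. Tek and Angpt2 reached 30 counts in no class, and Angpt1 only in monocytes and neutrophils.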
